A study of Mus musculus with 34 samples.

Results

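The genes described here encode heat shock proteins, chaperonins and protein disulfide isomerases, the machinery that folds new and damaged proteins. They were taken by symbol: the Hspa, Hspb, Hspd, Hspe, Hsph and Hsp90 genes, the Dnaja, Dnajb and Dnajc genes, Tcp1 with Cct2 to Cct8, and the numbered Pdia genes. This gave 70 of the 13190 genes listed in any of the 4 deposited tables, and 62 of the 8760 genes listed in all 4. The hippocampal tables held 65 of 11531 genes, that of the primary culture held 63 of 10379 and that of embryonic stem cells 68 of 11029. By family, the 70 genes held 9 of HSP70 and its HSP110 relatives, 3 of HSP90, and Hspd1 and Hspe1 of the mitochondrial chaperonin. The 3 genes Hspb1, Hspb8 and Hspb11 were grouped as small heat shock proteins by symbol alone. The others were 39 J proteins, 9 subunits of the cytosolic chaperonin CCT, 4 Pdia genes and Hspbp1, which encodes a nucleotide exchange factor of HSP70. Hspa1a and Hspa1b of HSP70 were listed in none of the 4 tables, so they were not measured here.

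Ribosome-protected fragments (RPF, footprints) and RNA were sequenced from hippocampi of single-caged C57BL/6N mice, taken without stimulus (control) or at 5 min, 10 min, 30 min or 4 h from contextual fear conditioning. In that training a mouse explored a chamber for 148 s, received a 2 s foot shock and was returned after 30 s. Mice of all 5 groups, controls included, had been handled on 4 days for 3 min a day. There were 3 replicate libraries of each kind for each of the 5 groups. The age and sex of the mice are not stated. Embryonic stem cells (ESC, line A3-1, given an siRNA against luciferase) and hippocampal primary culture had 1 RPF and 1 RNA library each. The labels do not say that replicates are separate animals, so the p-values reflect sample-to-sample spread that could be technical.

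HSP70 proteins bind exposed hydrophobic stretches of their clients and release them in an ATP cycle, which J proteins start and exchange factors end. HSP90 acts later, on clients such as kinases and steroid receptors, and CCT is a double ring that folds actin and tubulin. In the endoplasmic reticulum, Hspa5 (BiP) and Hsp90b1 (Grp94) hold secretory proteins while the Pdia enzymes form and rearrange their disulfide bonds. Neurons call on this machinery at synapses, where Hspa8 with the J protein auxilin (Dnajc6) strips clathrin from vesicles. Cells raise the cytosolic set through heat shock factor 1, which binds heat shock elements, and the endoplasmic reticulum set through the unfolded protein response, which acts on the ER stress element.

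Promoter sequence is shown for 4 members described below, as examples of the heat shock element and the ER stress element. Each motif stood in 4 of the 58 members with a promoter window, so most members held neither as searched. The 250 bases before the RefSeq start are given 5′ to 3′ on the strand of the gene (RefSeq, GRCm38.p6), with the motif in capitals. Hspa5 lies at chr2:34771840-34772089 (plus strand), Hsp90b1 at chr10:86705445-86705694 (minus strand), Pdia6 at chr12:17266339-17266588 (plus strand) and Hspd1 at chr1:55087933-55088182 (minus strand). Capitals mark the ER stress element in the first 3 and overlapping heat shock elements in Hspd1.
Hspa5: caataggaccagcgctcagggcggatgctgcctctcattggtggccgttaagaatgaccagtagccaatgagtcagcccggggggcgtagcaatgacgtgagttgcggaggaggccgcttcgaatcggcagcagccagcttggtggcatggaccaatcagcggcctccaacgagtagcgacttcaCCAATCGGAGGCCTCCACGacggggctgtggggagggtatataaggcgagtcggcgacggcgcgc
Hsp90b1: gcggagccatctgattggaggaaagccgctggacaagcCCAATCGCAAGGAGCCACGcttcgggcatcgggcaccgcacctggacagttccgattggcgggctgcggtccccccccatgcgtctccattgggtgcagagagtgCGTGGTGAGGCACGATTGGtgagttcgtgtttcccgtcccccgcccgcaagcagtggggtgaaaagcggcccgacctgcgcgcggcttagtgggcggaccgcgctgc
Pdia6: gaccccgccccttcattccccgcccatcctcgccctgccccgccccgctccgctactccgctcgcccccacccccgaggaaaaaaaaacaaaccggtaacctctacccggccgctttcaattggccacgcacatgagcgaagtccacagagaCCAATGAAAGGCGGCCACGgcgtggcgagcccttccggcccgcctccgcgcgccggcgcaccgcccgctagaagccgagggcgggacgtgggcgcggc
Hspd1: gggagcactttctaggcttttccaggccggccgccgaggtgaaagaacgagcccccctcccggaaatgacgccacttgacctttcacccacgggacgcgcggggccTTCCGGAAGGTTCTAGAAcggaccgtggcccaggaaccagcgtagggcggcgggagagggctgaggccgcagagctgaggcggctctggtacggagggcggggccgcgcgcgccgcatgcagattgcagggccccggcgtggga

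RefSeq promoter windows of 250 bases before to 50 after the start were found for 58 of the 70 members. The ER stress element (CCAAT and CCACG with 9 bases between, searched on both strands) stood in the windows of Hspa5, Hsp90b1, Pdia6 and Dnajc3, which is 6.90% of the 58 members, and in 0.161% of the 9936 listed genes with a window and 0.119% of all 32851 windows. In Hspa5 it began 65 bases before the start and in Pdia6 98 bases before. Hsp90b1 had a match on each strand, beginning 212 and 107 bases before the start. The heat shock element (TTC, GAA and TTC with 2 bases between each, on either strand) stood in the windows of Dnajb6, Hspd1, Hspe1 and Hsph1, against 0.604% of listed genes. Hspd1 and Hspe1 run in opposite directions from 1 stretch, so their matches are the same bases read on both strands, and in Hsph1 the match lies after the start. CCAAT alone was as common in members (43.1%) as in listed genes (42.9%), while GGGCGG stood in 79.3% and 69.4% and CACGTG in 10.3% and 11.9%. CCAAT overlaps the ER stress element. These matches describe letters in a window and were not tied to binding.

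The deposited values, called signal here, are read numbers divided by 1 number per library, so a signal was compared between libraries for 1 gene and not between genes as an amount. Reads on listed genes numbered 14240563 to 30480009 in the hippocampal RPF libraries, 16814796 to 25515210 in the hippocampal RNA libraries, 18771379 (RPF) and 7282564 (RNA) in culture, and 65147288 (RPF) and 16686790 (RNA) in ESC. The neuron marker list was complete in hippocampus (8 of 8 listed, summed RPF signal 638 to 688 in control). All 7 pluripotency markers were listed in ESC (summed RPF signal 409), against 4 of 8 neuron markers (28.6). The culture listed 8 of 8 neuron and 7 of 7 astrocyte markers, but 1 of 7 for microglia, 2 of 6 for oligodendrocytes and 0 of 5 for endothelial cells. Footprints of the activity-regulated genes Arc, Fos, Egr1, Junb, Npas4 and Nr4a1 summed to a signal of 25.7 to 26.7 at 30 min, against 15.9 to 16.9 in control. In tissue, fewer cells of a type and less RNA per cell cannot be told apart.

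Members took 1.22 to 1.56% of RPF reads and 0.773 to 0.937% of RNA reads on listed genes in the 30 hippocampal libraries. The share was 5.44% of RPF and 4.38% of RNA reads in ESC, and 2.29% and 1.45% in culture. Of the 65 members listed in tissue, 59 passed the filter on low values in RPF (a mean signal of at least 1 over 15 libraries) and 56 in RNA. Those below it in both were Pdia5, Dnajc4, Dnajc5, Dnajc17, Dnajc25 and Dnajc28, and in RNA also Dnajc12, Dnajc30 and Hspb11. Dnajc5, the cysteine string protein of synaptic vesicles, was listed under 1 transcript identifier at a signal of 0.221 to 0.325 in RPF. How reads on any other transcript of it were counted is not stated, so this value may not stand for the gene. Over 15 libraries the median coefficient of variation was 9.44% for members and 9.05% for all genes in RPF, and 10.3% and 7.94% in RNA.

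In hippocampus, most members differed between replicate numbers, as did most genes. Heat shock proteins of the HSP70 and HSP90 families carried more footprints in replicate 1 of every group than in replicates 2 and 3, and Hspe1 carried fewer. Hsp90b1, the endoplasmic reticulum HSP90, had an RPF signal of 95.2, 95.6, 88.4, 89.9 and 90.8 in replicate 1 of control, 5 min, 10 min, 30 min and 4 h. Replicate 2 gave 51.4, 58.4, 61.0, 68.2 and 68.7 in the same order, and replicate 3 gave 66.9, 69.4, 60.3, 58.0 and 65.8. Every replicate 1 library was thus above all 10 others, at each time as in control. Hspa8, the constitutive cytosolic HSP70, gave 160.1, 149.1, 160.3, 168.1 and 166.7 in replicate 1, while replicates 2 and 3 spanned 102.0 to 115.0 and 103.4 to 123.9. Hspa5 gave 69.2 to 73.9 in replicate 1, against 41.9 to 55.5 in replicate 2 and 47.8 to 56.8 in replicate 3. Again the replicate 1 libraries did not overlap the rest. Replicate 1 RPF libraries also held more reads on listed genes, 24081134 to 30480009, against 14240563 to 20644094 in replicate 2 and 15928292 to 19245717 in replicate 3. The part of depth in this result was not tested.

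**Figure D1:**
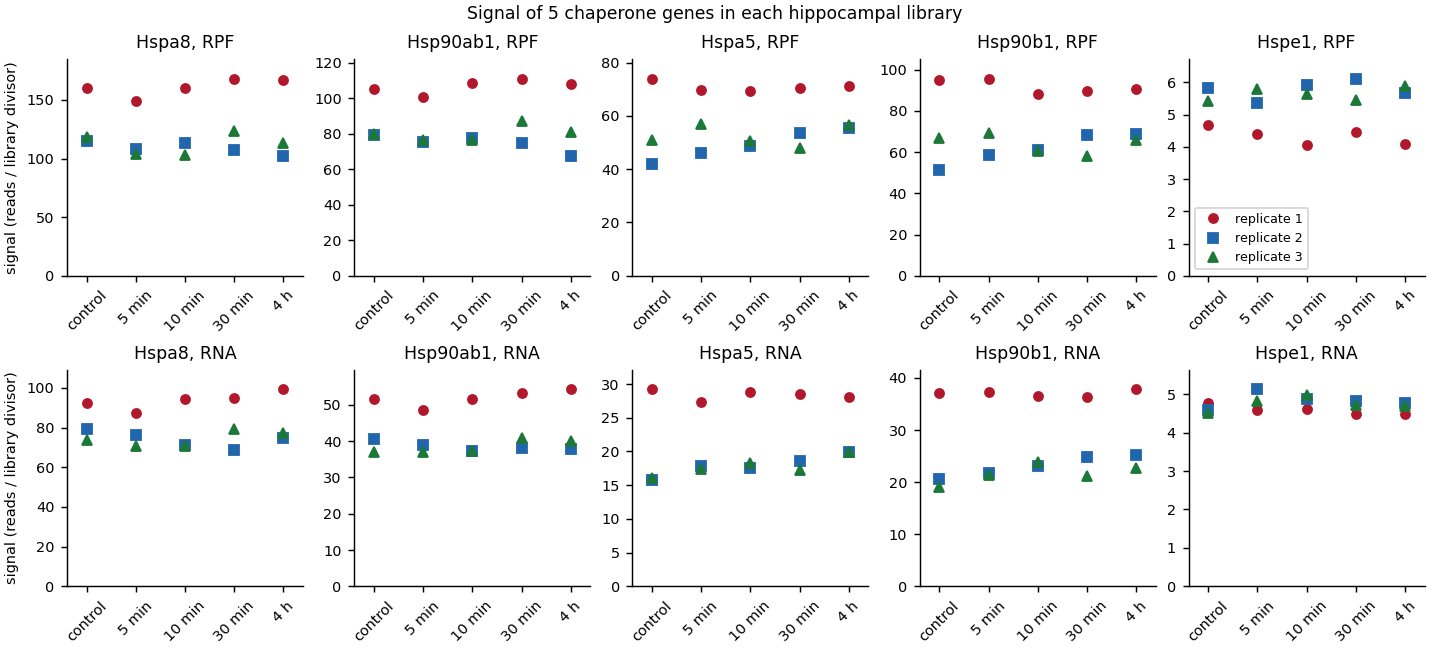
RPF (top) and RNA (bottom) signal of 5 members in each hippocampal library, by group on the horizontal axis and replicate number by colour and shape; each point is 1 library. Replicate 1 of Hspa8, Hsp90ab1, Hspa5 and Hsp90b1 lies above replicates 2 and 3 in every group, and replicate 1 of Hspe1 lies below them in RPF.

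By a limma F-test between replicate numbers within groups (Benjamini-Hochberg adjustment over all genes, threshold 0.05), 49 of 59 members differed in RPF, against 73.1% of all 7898 genes, and 44 of 56 in RNA, against 65.5% of 8061 genes. The member counts, 83.1% and 78.6%, therefore stand on a background in which most genes differed. The 5 members with the largest range in RPF were Hsp90b1 (means of 92.0, 61.5 and 64.1 in numbers 1, 2 and 3, limma adjusted p = 1.85e-06), Hspa8 (160.9, 109.2 and 112.6), Hspa9, the mitochondrial HSP70 (12.8, 8.41 and 9.20), Hspa5 (70.9, 49.1 and 52.5) and Hsp90ab1, the constitutive cytosolic HSP90 (106.7, 74.8 and 80.2). All 5 replicate 1 libraries lay above the other 10 in 21 of 59 members in RPF, against 19.9% of all genes, and in 26 of 56 in RNA, against 19.4%. With median-ratio scaling these counts were 17 in RPF, against 16.9% of all genes, and 21 in RNA, against 11.98%. They lay below the other 10 in 7 members in RPF, against 12.7% of all genes, and in Dnajc27 and Hspbp1 in RNA, against 4.18%.

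The families differed in this respect. In HSP70 and HSP110, replicate 1 was highest in 8 of 9 members in RPF, with a median of 1.38 times the mean of the other numbers, and in 9 of 9 in RNA (1.28 times; 8 of 9 with median-ratio scaling). The exception in RPF was Hspa14, a ribosome-associated HSP70. All 3 HSP90 genes were highest in replicate 1 in both kinds (1.38 times in RPF and 1.37 in RNA), and the 3 Pdia genes above the filter were highest there in RPF (1.28 times). CCT subunits differed less, with a median of 1.08 times in RPF and 1.11 in RNA. J proteins were close to all genes in RPF, with a median of 1.03 against 1.02, and 15 of 31 were highest in replicate 1, against 47.1% of all genes. In RNA their median was 1.11 against 1.05, and 24 of 29 were highest in replicate 1, against 56.8% of all genes. With median-ratio scaling, J proteins were highest there in 11 of 31 in RPF, against 3343 of 7898 genes. In RNA this scaling gave 18 of 29, against 3216 of 8061 genes. CCT subunits were highest in replicate 1 in 6 of 8 in RPF and 7 of 8 in RNA, and in 5 of 8 in both kinds with this scaling.

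Partners in 1 machine could move in opposite directions. Hspd1, which forms the mitochondrial chaperonin ring, had means of 10.6, 8.30 and 9.16 in RPF for numbers 1, 2 and 3. Hspe1, the lid of that ring, gave 4.68, 4.41, 4.05, 4.46 and 4.08 in replicate 1, against 5.35 to 6.11 in replicate 2 and 5.41 to 5.88 in replicate 3. For Hspe1 the 5 replicate 1 libraries were thus the lowest (limma adjusted p = 1.83e-06), while its RNA did not pass (means of 4.59, 4.84 and 4.75, limma adjusted p = 0.212). Its translational efficiency (TE, the log2 ratio of RPF to RNA with the median gene set to 0) averaged -0.07, 0.18 and 0.18 in numbers 1 to 3. Pdia3 also split between the kinds. Its RPF was highest in replicate 1 (62.3, 48.1 and 49.1), while its RNA was lowest in replicate 2 (8.71, 6.49 and 10.2), and its TE averaged 2.70, 2.68 and 2.14.

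Summed marker lists of other cell types also differed between replicate numbers, in different orders. All 7 astrocyte markers were listed, and their summed RPF signal was 467 to 512 in replicate 1, 328 to 429 in replicate 2 and 377 to 442 in replicate 3. The 7 microglial markers summed to 52.4 to 57.7, 37.2 to 47.8 and 45.7 to 50.5. The 12 choroid plexus markers summed to 1322 to 2103 in replicate 1 and 928 to 1911 in replicate 2, but to 69.3 to 498 in replicate 3. The 6 oligodendrocyte markers averaged 357.6, 327.7 and 371.3 in RPF for numbers 1, 2 and 3, highest in number 3. Neuron markers spanned 638 to 706 over all libraries. The part of these cell types in the result was not tested.

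Footprints after conditioning were compared with control to ask whether chaperone synthesis changed within minutes to hours of learning. No member passed the limma test at any time. That test left the replicate number out of the model and was conservative, and results with it as a block are given below. At 5 min, 0 of 59 members and 0% of all genes passed, and at an unadjusted p under 0.05 stood 0 members, against 0.646% of all genes. HSP70 and HSP110 genes were lower in 7 of 9 (median log2 change -0.10) and CCT subunits in 8 of 8 (-0.07; 7 of 8 with median-ratio scaling), while all 3 Pdia genes were higher (0.09). The median over the 59 members was -0.04, against -0.00 for all genes. The smallest unadjusted p-values, none past the threshold, belonged to Dnaja1, the main partner of cytosolic HSP70 (12.7 ± 0.440 at 5 min, against 14.01 ± 0.728 in control, SD, n = 3 each), Dnajb4 and Dnajb1 among lower members. Among higher ones they belonged to Dnajc30, Dnajb11 and Pdia6.

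At 10 and 30 min again 0 members and 0% of all genes passed in RPF, with 0 members at an unadjusted limma p under 0.05 at either time, against 0.329% and 0.253% of all genes. The lowest p-values at 10 min belonged to Dnajc18, Hspa14 and Dnajc30 (higher) and to Dnajc27, Dnaja1 and Cct8 (lower). At 30 min they belonged to Dnajc18, Dnajb5 and Dnajc2 (higher) and to Dnaja4, Dnajc21 and Hspb8 (lower), where the median over members was 0.01, as for all genes. At 4 h, 0 members and 0% of all genes passed, and 1 member stood under an unadjusted p of 0.05, against 0.532% of all genes. This was Dnaja4, a J protein that partners cytosolic HSP70. It had an RPF signal of 2.22, 2.32 and 2.32 at 4 h, against 2.50, 2.74 and 2.49 in control, and the groups did not overlap. Its log2 change was -0.12 (SE 0.05, limma unadjusted p = 0.0308, adjusted p = 1.00). In the means over replicates all 8 CCT subunits were lower at 4 h, by a median of -0.04, and also with median-ratio scaling. By replicate number the CCT median was 0.03, -0.20 and 0.004 in numbers 1, 2 and 3, so only replicate 2 was lower. The others named by smallest p at 4 h were Pdia6, Dnajc18 and Pdia3 (higher) and Dnajb1 and Dnajc2 (lower).

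RNA was compared in the same way. The counts past the threshold were 0 of 56 members and 0% of all genes at each of the 4 times. At an unadjusted limma p under 0.05 stood 0, 1, 0 and 1 members at 5 min, 10 min, 30 min and 4 h, against 1.04%, 1.86%, 1.46% and 2.59% of all genes. Dnajb4, another J protein of cytosolic HSP70, was among the smallest p-values at all 4 times, which share the 3 control libraries. Its RNA signal was 4.32, 4.28 and 3.86 in control, 4.68, 4.46 and 4.62 at 5 min, 4.83, 4.55 and 4.20 at 10 min, 4.74, 4.66 and 4.21 at 30 min and 4.59, 4.63 and 4.67 at 4 h. Each time stood above control in 3 of 3 replicate numbers, and the groups did not overlap at 5 min and 4 h. The log2 change at 4 h was 0.13 (SE 0.06, limma unadjusted p = 0.0415, adjusted p = 1.00).

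Dnajc1, an endoplasmic reticulum J protein that binds translocating ribosomes, gave the other low value, at 10 min. Its RNA signal was 5.35, 4.80 and 5.36 at 10 min, against 4.84, 4.08 and 4.53 in control, and the groups overlapped (log2 change 0.17, SE 0.07, limma unadjusted p = 0.0322, adjusted p = 1.00). Higher RNA with the smallest p-values was also listed for Dnajb9 at 5 min, Dnajb14 at 10 min and 4 h, and Dnajb12 at 30 min. Lower RNA was listed for Dnajb1, the J protein most induced by heat, Hspb8 and Cct3 at 5 and 30 min, for Dnajb1, Cct3 and Dnaja3 at 10 min, and for Dnajb2, Dnajb1 and Hspb8 at 4 h. RNA was higher than control in 47 of 56 members at 30 min and 45 at 4 h, or 83.9% and 80.4%, against 71.6% and 66.2% of all genes. With median-ratio scaling it was higher in 37 of 56 at both times (66.1%), against 55.2% and 54.8% of all genes.

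With the replicate number in the model as a block, the smallest adjusted p-values of members were those of Pdia3, Hspa5 and Hsp90b1 in RNA at 4 h, none past the threshold. At 4 h, Pdia3 RNA was 9.14, 7.48 and 10.9, against 8.90, 5.74 and 8.95 in control, a log2 change of 0.21 (SE 0.21 without the block), with a limma adjusted p of 1.00 without and 0.0853 with the block. Hspa5 RNA was 28.1, 19.9 and 19.9 at 4 h, against 29.2, 15.8 and 16.01 in control (limma adjusted p = 1.00 without and 0.124 with the block). In replicate 1 it was lower at 4 h than in control, and in replicates 2 and 3 higher. Over time, Hspa5 footprints in replicate 2 were 41.9 in control and 45.9, 48.7, 53.4 and 55.5 at 5 min, 10 min, 30 min and 4 h. Replicates 1 and 3 held no such order. 

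With the block, 0 members passed the adjusted limma threshold in any comparison. Of all genes, 0.0506% passed in RPF at 30 min and 0.076% at any time, and in RNA 0.0372%, 0.0248%, 0.0248% and 0.0124% passed at 5 min, 10 min, 30 min and 4 h and 0.062% at any time. In TE 0.0141% passed at 5 min, and in the other comparisons 0%. At an unadjusted p under 0.05 with the block stood 4, 0, 0 and 2 members in RPF, against 6.89%, 3.28%, 2.76% and 6.04% of all genes at the 4 times. In RNA there were 4, 8, 5 and 8 members, against 6.6%, 12%, 10% and 16.3%, and in TE 4, 3, 1 and 5, against 5.59%, 5.7%, 2.42% and 6.35%. For any time there were 1 member in RPF, 3 in RNA and 0 in TE, against 4.53%, 7.74% and 3.25%.

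TE was compared in 1 model over both kinds of library. At 5 min, 10 min, 30 min and 4 h, 0 of 56 members and 0% of all genes passed, with 1, 0, 0 and 1 members at an unadjusted limma p under 0.05, against 0.704%, 0.817%, 0.225% and 0.619% of all genes. Dnajb4 was the member in both cases, with a log2 change of -0.20 (SE 0.08, limma unadjusted p = 0.0236, adjusted p = 1.00) at 5 min. At 4 h its change was -0.18 (SE 0.08, limma unadjusted p = 0.0462, adjusted p = 1.00). At 4 h TE was lower than control in 45 of 56 members and higher in 19.6%, against 39.9% of all genes, with a median of -0.06, against -0.02 for all genes. With median-ratio scaling it was lower in 36 of 56 and higher in 35.7%, against 53.2% of all genes. HSP70 and HSP110 members were lower in 9 of 9 (6 of 9 with median-ratio scaling), HSP90 in 3 of 3 and CCT in 7 of 8 (6 of 8), and Pdia3, Pdia4 and Pdia6 had a median of 0.00. Other low p-values at 5 min belonged to Dnajb6 and Dnaja4 (lower) and Dnajb11, Hspb8 and Dnajc16 (higher). At 10 min they belonged to Dnajb4, Dnajc1 and Dnajc21 (lower) and Dnajb1, Dnajb5 and Dnaja3 (higher). At 30 min these were Dnaja4, Dnajc21 and Dnajc15 (lower) and Dnajb1, Dnajc11 and Cct3 (higher), and at 4 h Dnaja4 and Dnajb14 (lower) and Dnajb2, Hspb8 and Cct3 (higher).

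**Figure D2:**
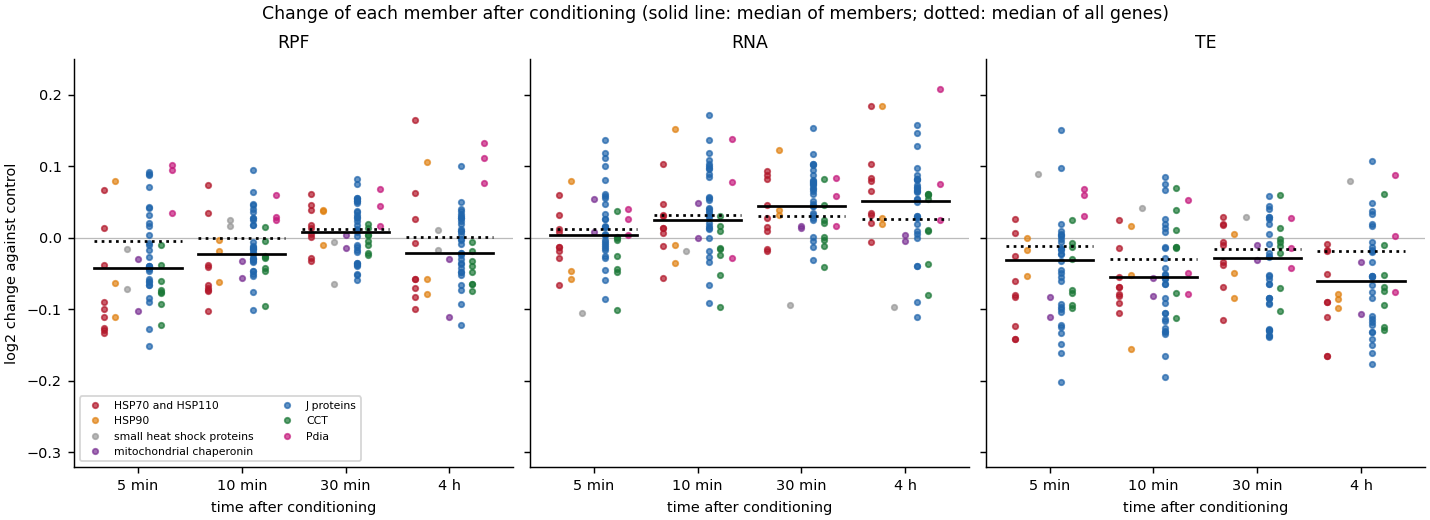
Log2 change against control of each member above the filter except Hspbp1 in RPF, RNA and TE, by time after conditioning; points are genes coloured by family, solid lines mark the median of members and dotted lines that of all genes. Members ran from -0.15 to 0.17 in RPF over the 4 times, and the TE medians of members lie below those of all genes, at -0.06 against -0.02 at 4 h.

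A moderated F-test for any time gave 0 members and 0% of all genes in RPF, RNA and TE, with 0 members at an unadjusted p under 0.05, against 0.393%, 0.546% and 0.253% of all genes. Leaving out 1 library changed the sign of the member median at 10 min, 30 min and 4 h in RPF and at all 4 times in RNA. At 4 h in RPF it became 0.04 without 4 h replicate 2, and in RNA -0.02 without 4 h replicate 1. The TE median at 4 h stayed between -0.08 and -0.02 over all such fits, with the highest value without control replicate 3.

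Genes that work with the members were counted from lists. Of 40 co-chaperones, such as the HSP70 exchange factors Bag1 to Bag5, the HSP70-HSP90 adaptor Stip1 and prefoldin, 34 were tested in RPF and 0 passed at any time. Their median was -0.04 at 5 min, with 30 of 34 lower, and -0.02 at 4 h, with 26 lower. Of 30 endoplasmic reticulum quality control genes, such as calreticulin (Calr), calnexin (Canx) and P4hb, 28 were tested and 0 passed. They were higher in 23 of 28 at 5 min and 24 at 4 h, with a median of 0.07 at both. The list of known heat shock factor 1 targets holds 10 members, including Hspb1, which was not listed in tissue. Of the 15 targets tested, 14 were lower at 4 h (median -0.06). Unfolded protein response genes, of which 8 are members, were higher in 15 of 16 at 4 h (0.07). Of all 7898 genes, 3735 were higher at 5 min and 4042 at 4 h. Replicate numbers differed at 4 h among members. The Pdia median was -0.05, 0.29 and 0.04 in numbers 1, 2 and 3, and that of HSP70 and HSP110 was 0.07, -0.17 and -0.01. The lists themselves were not split by replicate number. At 4 h, choroid plexus markers were lower in 10 of 10 (median -0.52) and astrocyte markers higher in 6 of 7 (0.10). The part of these cell types in the member changes was not tested.

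In control hippocampus, the 3 HSP90 genes, Pdia3, Pdia4, Pdia6 and Hspa5 had more footprints per RNA than the median gene, and some J proteins had fewer. Over the 56 members the median baseline TE was 0.32, with 37 above the median gene. Past 2-fold above the median gene stood 7 members, against 7.76% of all genes, and past 2-fold below it 3, against 8.91%. HSP90 had the highest family median (1.29), followed by Pdia (1.01), HSP70 and HSP110 (0.57), Hspd1 with Hspe1 (0.39), CCT (0.35) and J proteins (-0.01), while the single genes Hspbp1 and Hspb8 stood at 0.88 and -0.15. Members of the endoplasmic reticulum went both ways, since its J proteins Dnajc10, Dnajc3 and Dnajc1 stood at -0.37, -0.34 and -1.08. The list of endoplasmic reticulum quality control genes had a median of 0.24 over 26 genes, with 7.69% past 2-fold above the median gene, against 7.76% of all genes. These values depend on the authors' counting of reads shared with pseudogenes, which the labels do not describe, and Hspa8, Hsp90ab1, Hspd1, Hspe1 and CCT genes have such copies.

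Pdia3, which works on glycoproteins held by calreticulin and calnexin, stood highest, at 2.66, 2.60 and 2.28 in the 3 control replicates (2.51 ± 0.20, SD, n = 3). This placed it above 99.8% of all genes. Hsp90b1 (1.42 ± 0.25), Hspa5 (1.39 ± 0.15), the inducible cytosolic HSP90 gene Hsp90aa1 (1.29 ± 0.17) and Cct7 (1.09 ± 0.09) followed, and the first 3 of these differed from each other by less than the largest of their SDs. The lowest were Dnajc27, which joins a J domain to a Rab-like GTPase, at -2.19, -2.22 and -2.20 (-2.20 ± 0.02), Dnajc14 (-1.42 ± 0.22), Dnajc1 (-1.08 ± 0.12), Dnajc18 (-0.81 ± 0.08) and Dnajc13 (-0.39 ± 0.14). Dnajc27 kept -2.36 to -2.19 over all 15 libraries, below every other member.

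**Figure D3:**
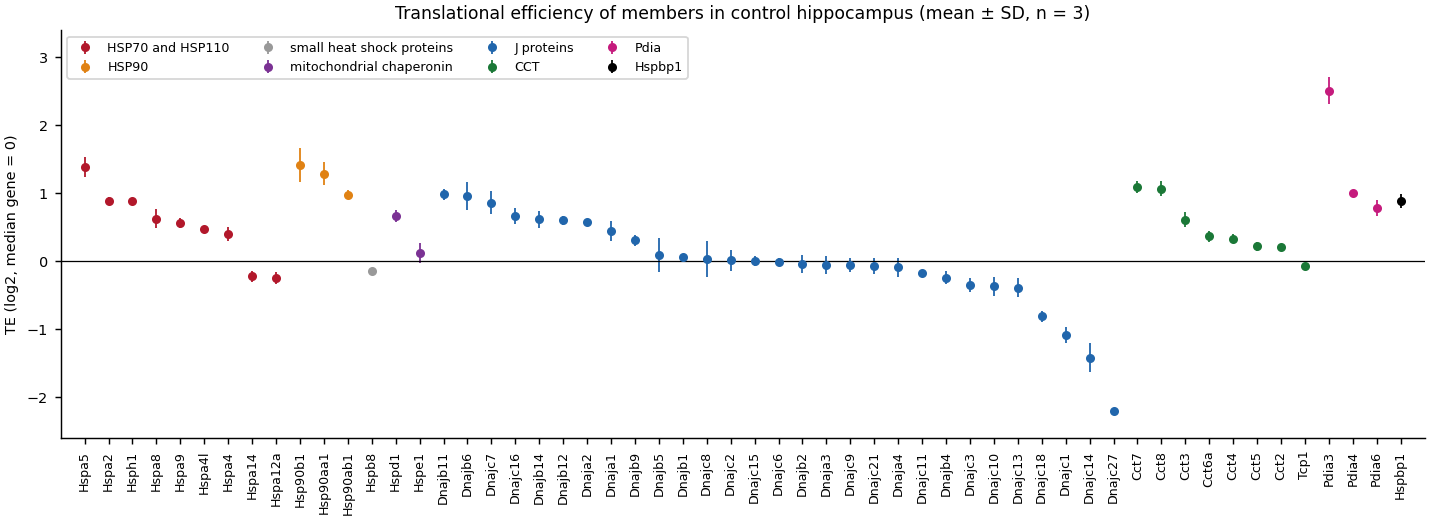
Baseline TE of the 56 members in control hippocampus, by family and then by value; points are means and bars SD of 3 replicates, on a log2 scale with the median gene at 0. Pdia3 stands highest at 2.51, and Dnajc27 lowest at -2.20.

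Within CCT, which is assembled from 1 copy of each of 8 subunits per ring, the subunits held different TE. Cct7 and Cct8 stood at 1.09 ± 0.09 and 1.07 ± 0.11, and Tcp1 at -0.07 ± 0.04. Cct3 was at 0.61 ± 0.11, and Cct6a, Cct4, Cct5 and Cct2 lay between 0.21 and 0.37. The shares of the 8 subunits in their summed signal showed the same contrast. Tcp1 took 12.8 ± 0.426% of CCT footprints and 19.1 ± 0.131% of CCT RNA in control, whereas Cct8 took 15.7 ± 0.244% and 9.91 ± 0.815%. Since gene length is not known to enter the signal, such shares were compared for 1 subunit between samples only.

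In ESC all 8 CCT subunits, Hspd1, Hspe1 and the cytosolic HSP90 genes were higher than in control hippocampus, while Hspa12a, Hspa4l and several J protein genes were lower. Levels here are RPM, each library scaled to the same total over the 8760 genes listed in all tables. With 1 ESC library of each kind there is no test, and the intervals given (95%, exact binomial) cover counting error only. Ratios were taken after adding 1 to each RPM, which understates those of low genes. In RPF 25 of 62 members were higher past 2-fold, against 25.2% of all genes, and 19 lower, against 37.8%. In RNA 33 were higher, against 27.4%, and 18 lower, against 35.2%. The median gene itself stood at a log2 ratio of -0.35 in RPF and -0.17 in RNA, against 0.33 and 1.13 for members.

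Hspd1 had the highest ratio in both kinds. Its RPF level was 2815 (2802 to 2829) in ESC, against 219.7, 186.5 and 187.8 in the 3 control replicates, 14.2-fold higher, and its RNA was 20.7-fold higher. Hspe1 was 5.15-fold higher in RPF, at 562 against 108.3 ± 15.7. All 8 CCT subunits were past 2-fold in both kinds, from 3.28-fold (Cct7) to 8.78-fold (Cct4) in RPF, with a median of 4.29 in RPF and 6.84 in RNA. Cct4 stood at 1566 in ESC, against 175.4, 177.6 and 179.1 in control. Among HSP70 genes, Hspa4, an HSP110 exchange factor, was 8.25-fold higher, the mitochondrial Hspa9 6.04-fold, Hspa14 4.44-fold and Hspa8 3.63-fold. The HSP90 genes Hsp90aa1 and Hsp90ab1 were 5.87-fold and 3.89-fold higher. The highest 5 by RPF were thus Hspd1, Cct4, Hspa4, Cct3 and Hspa9, and in RNA Dnajc2 replaced Cct4 among them.

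Among endoplasmic reticulum members the ratios went both ways. Hspa5 had an RPF level of 2528 in ESC, against 1125 ± 298.7 in control, 2.25-fold higher, and Hsp90b1 2753 against 1439 ± 402.5, 1.91-fold. Pdia6 was 2.97-fold higher, and the median of the 3 Pdia genes measured was 1.47-fold in RPF and 2.45-fold in RNA. The J proteins Dnajc3 and Dnajb9 of this compartment were 2.40-fold and 5.99-fold lower. Pdia5, outside the shared genes because the culture did not list it, had an RPF signal of 4.92 in ESC, against 0.193, 0.186 and 0.203 in control, in tables that were scaled separately.

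Hspa12a, a distant HSP70 relative abundant in brain, was the lowest, with an RPF level of 2.86 (2.45 to 3.32) in ESC, against 177.1 ± 18.9 in control, 46.1-fold lower. Dnajb14 was 24.5-fold lower, Dnaja4 23.9-fold, Dnajb4 21.1-fold and Hspa4l 18.7-fold. Dnajc6, the neuronal auxilin, stood at 48.4 in ESC, against 563 ± 6.81 in control, 11.4-fold lower. In RNA the 5 lowest were Hspa12a (35.7-fold), Dnajc27 (26.1-fold), Hspa4l (13.9-fold), Dnaja4 (12.3-fold) and Dnajb5 (10.7-fold). Hspb1, the best known small heat shock protein, was listed for ESC, at an RPF signal of 65.6 and an RNA signal of 17.9, and not among the genes listed for tissue or culture. Cct6b, Dnajb13, Dnajc22 and Dnajc24 were likewise listed for ESC, at signals of 0.097 to 0.547.

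**Figure D4:**
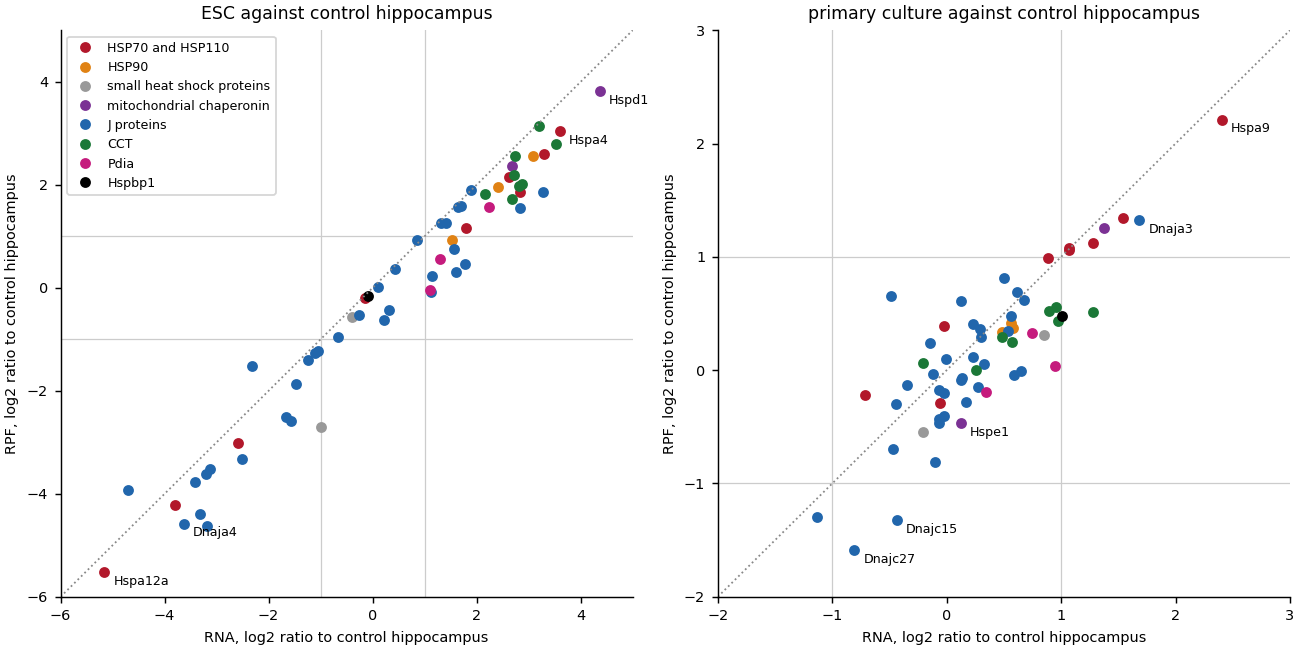
Log2 ratio to control hippocampus of the 62 members listed in all tables, RNA on the horizontal and RPF on the vertical axis, for ESC (left) and primary culture (right); each point is a gene, grey lines mark 2-fold and the dotted line equal ratios. CCT, HSP90 and Hspd1 lie at the upper right in ESC, Hspa12a at the lower left, and Hspa9 stands out in culture at 4.63-fold in RPF and 5.30-fold in RNA.

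In primary culture fewer members differed by 2-fold than in ESC, and the mitochondrial HSP70 stood highest. In RPF 7 of 62 members were higher past 2-fold, against 9.89% of all genes, and 3 lower, against 11.6%. In RNA 9 were higher, against 11.7%, and 1 lower, against 7.08%. Hspa9 had an RPF level of 999 (984 to 1015) in culture, against 255.2, 201.1 and 189.3 in the control replicates, 4.63-fold higher, and 5.30-fold in RNA. Its J protein partner Dnaja3 was 2.50-fold higher in RPF and 3.21-fold in RNA, and Hspd1 2.38-fold and 2.60-fold, but Hspe1 was not (log2 ratio -0.47 in RPF and 0.13 in RNA). Hspa5 was 2.53-fold higher in RPF, Hspa8 2.18-fold, Hspa2 2.11-fold and Hspa4 2.08-fold. Lower in RPF were Dnajc27 (3.01-fold), Dnajc15 (2.51-fold) and Dnajc21 (2.45-fold), followed by Dnajb14 (1.76-fold) and Dnajc12 (1.62-fold). In RNA Cct7 joined the 5 highest (2.43-fold), and the lowest were Dnajc21, Dnajc27 and Hspa12a.

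Single libraries of culture and ESC also gave TE, compared with the mean of the 3 control replicates and with no test. In ESC 1 of 56 members was higher past 2-fold, against 7.38% of all genes, and 1 lower, against 4.14%. These were Dnajc27, at -0.64 in ESC, against -2.17 ± 0.02 in control, and Dnajc2, a J protein on ribosomes, at -1.03 against 0.05 ± 0.16. With a pseudocount of 0.1 these counts were 0 higher, against 11.3% of all genes, and 4 lower, against 8.9%. Dnajc27 had an ESC signal of only 0.24 in RPF and 0.77 in RNA, where adding 1 draws the ratio towards equality. It passed the filter through its control signal, since the filter used the mean of control and ESC. The median difference was -0.23 for members and -0.01 for all genes, with 40 of 56 members lower. In culture 1 of 55 members was higher past 2-fold, against 1.16% of all genes, and 0 lower, against 0.452%. It was Dnajc1, at -0.06 in culture, against -1.06 ± 0.12 in control, and Pdia3 had the lowest difference (1.90 against 2.53 ± 0.20).

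CCT subunits changed their shares in these cells. Cct4 took 15.3% of CCT footprints in ESC, 9.69% in culture and 8.30 ± 0.158% in control, and Cct3 took 13.2%, 10.51% and 9.20 ± 0.105%. Cct7 took 10.8% in ESC and 17.8% in culture, against 15.7 ± 0.525% in control. In RNA, Tcp1 took 12.2% in ESC and 10.9% in culture, against 19.1 ± 0.131% in control, where the 15 hippocampal libraries spanned 18.1 to 20.3%. Cct7 RNA took 8.99% in ESC and 15.5% in culture, against 9.72 ± 0.666% in control. Cct6a held nearly the same share of footprints in ESC (13.3%) and culture (13.2%) and 13.98 ± 0.330% in control.

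**Figure D5:**
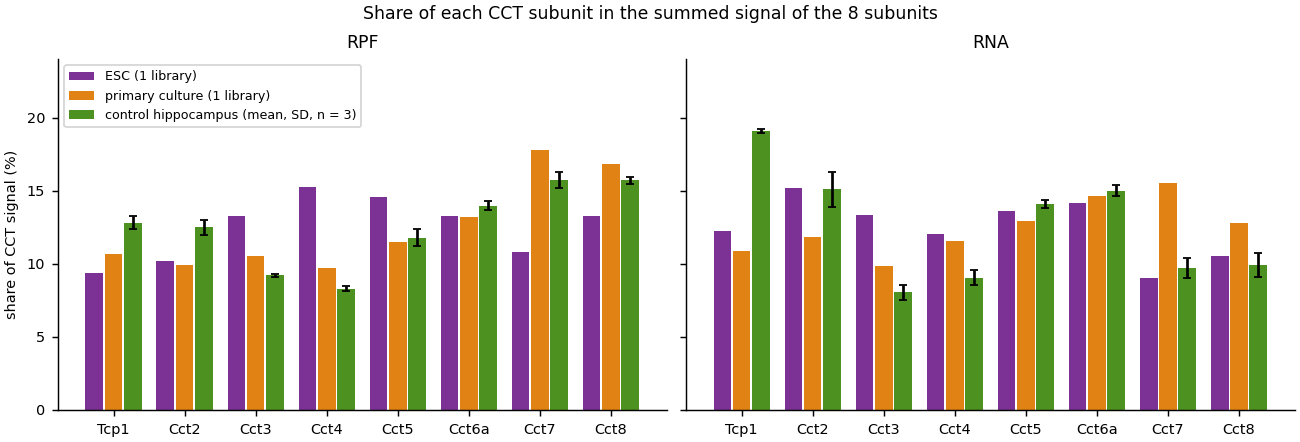
Share of each CCT subunit in the summed signal of the 8 subunits, in RPF (left) and RNA (right); bars are single libraries for ESC and primary culture and means with SD of 3 replicates for control hippocampus. Cct4 has a larger RPF share in ESC (15.3%) than in control (8.30%), and Tcp1 a smaller RNA share in ESC and culture (12.2% and 10.9%) than in control (19.1%).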

How the data were processed

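RPF and RNA libraries of hippocampus, primary culture and ESC were used. The submitters' processing notes name CASAVA 1.8.2, Bowtie 1.1.1 and the build mm9. The deposited signal values are read numbers over a library-wide divisor. After multiplying back, all 388746 values lay within 0.001 of a whole number. What the divisor stands for, and how the authors treated shared reads, strand and gene length, is not stated. As the unit was not one of those assumed in the design, values were tested on a log scale.

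Genes with a mean signal of at least 1 over 15 libraries were tested on log2(signal + 1) with limma 3.58.1 in R 4.3.3 (lmFit, eBayes with trend), 5 groups in 1 model without a block, 2-sided, adjusted by Benjamini-Hochberg over all genes at 0.05. On this scale changes of low genes are understated. TE was the interaction over 30 libraries. Baseline TE used the same pseudocount and was centred on the median gene. The test was also run on simulated data with noise drawn independently for each library. That run held no replicate effect, so it does not cover the pairing seen in these libraries. Levels against culture and ESC used RPM over shared genes. Reads are not independent molecules, so intervals cover counting error only.

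Same-numbered libraries deviated together from their group means (r = 0.402 to 0.938 in RPF and 0.268 to 0.870 in RNA, 30 pairs each). For different numbers the median was -0.480 and -0.302. With 3 replicates centred on their group mean, negative values there follow from positive same-number values and are not separate support. The numbers were taken to pair the samples from the same-number values. The main fit did not use this pairing and was conservative. In RPF, 0.253 to 0.646% of all genes stood at an unadjusted limma p under 0.05 at the single times. With the block this was 2.76 to 6.89%. The p-values used to name genes came from the fit without the block. Named genes were those past the threshold or, with fewer than 3, the 3 of smallest p per direction, a set of well-known chaperones, the 5 highest and lowest in baseline TE and in each culture and ESC comparison, and the 5 with the largest range between replicate numbers. Members, lists and rules were chosen with earlier results of these data known.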

Additional observations from a re-analysis of the deposited data

How the results depend on the processing

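No member passed in any of the 12 comparisons or the 3 tests for any time under a pseudocount of 0.1, no filter, median-ratio scaling, a replicate block (0 called in each comparison), or voom on recovered reads with or without the block, which was chosen after seeing the data. Leaving out 1 library or 1 replicate number gave 0 called members in all 81 fits. The planned count test on recovered reads was not run, and voom took its place. CCT and Hspd1 to Hspe1 balance per residue was not run because no protein lengths were at hand. Between replicate numbers, 47 to 52 members passed in RPF over the alternatives (79.7 to 83.1%, against 64.2 to 73.5% of all genes) and 38 to 47 in RNA (67.9 to 78.6%, against 55.7 to 65.5%). Of the 12 member medians, 9 changed sign under some setting (cause not tested). Without 1 library, 5 named genes changed sign (cause not tested): Pdia6, RPF 5 min vs control, ran over -0.000807 to 0.215. Hspb8, RPF 30 min vs control, ran over -0.127 to 0.00437. Pdia3, RPF 4 h vs control, ran over -0.00974 to 0.288. Cct3, RNA 30 min vs control, ran over -0.115 to 0.0507, with 0.00316 also above 0. Dnajb5, TE 10 min vs control, ran over -0.0668 to 0.152. The baseline TE median was 0.24 with no filter. With a fold of 1.5, culture gave 4 members higher and 1 lower in TE (6.78% and 4.4% of all genes), 13 and 5 in RPF (21.4% and 23.8%) and 20 and 3 in RNA (27.9% and 15.8%), and ESC 2 and 8 in TE (18.4% and 16.1%). Centring TE on total reads gave 0 higher in culture (0.403%) and 6 lower in ESC (10.7%), and a pseudocount of 0.1 gave 0 higher and 4 lower in ESC (11.3% and 8.9%). ESC level counts stayed within 1.5 times of 25, 19, 33 and 18. Members with a mean signal under 1 in a kind of library were left out of its main test. They were tested only in the setting without the filter.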

Other observations

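Partners of the members were also counted in ESC and culture, with 1 library each and no test. In ESC, 16 of 37 co-chaperones were higher past 2-fold in RPF than in control hippocampus, against 25.2% of all genes, with a median of 1.79-fold. Targets of heat shock factor 1 were higher past 2-fold in 9 of 14, with a median of 3.76-fold, and most of the list are members described above. Endoplasmic reticulum quality control genes were higher past 2-fold in 7 of 30, against 25.2% of all genes, and lower in 11, against 37.8%. Their median was 0.888-fold. In culture, 30 of 30 endoplasmic reticulum quality control genes had more RNA than control hippocampus, against 5262 of 8760 genes. Past 2-fold higher stood 9 of them, against 11.7% of all genes. Their median was 1.74-fold in RNA, against 1.13-fold for all genes, and 1.20-fold in RPF.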
